A study of Mus musculus and Rattus norvegicus with 36 samples.

Results

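The genes of 10 interchangeable subunits of the BAF and PBAF chromatin remodellers were followed through mRNA sequencing of oligodendrocyte precursor cells (OPCs) from mouse and rat. They were taken by symbol, case ignored, from 5 tables of normalized read counts: Arid1a, Arid1b, Arid2, Pbrm1, Actl6a, Actl6b, Dpf1, Dpf3, Bcl11a and Bcl11b. All 10 had a row in every table and all 10 passed the filter on low values in every fit, out of 18464 genes with values in the acute table and 16263 to 26410 in the culture tables. The series holds 36 libraries in 12 groups of 3. Its stated question is whether BAF155, the product of Smarcc1, modulates how OPCs of different brain regions respond to neuronal input.

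The acute libraries came from OPCs that were immunopanned and lysed directly. The knockout groups, hippocampus and mPFC (medial prefrontal cortex), carried Pdgfralpha-CreER and Baf155-flox/flox; the control groups from the same regions carried Baf155-flox/flox without Cre, so floxed alleles were common to all acute groups. Cre was driven from Pdgfra, which marks OPCs but also other Pdgfra-expressing cells, and its activity depends on an inducer whose dose and time the labels do not give, and the labels give no age of the animals. The tissue labelled mPFC is described in the isolation protocol as dissected cortex. The culture libraries came from wild type OPCs kept for 2 days in proliferation medium and then given 200 uM GABA or 200 uM glutamate for 24 h, against untreated cultures: mouse hippocampus with GABA, mouse mPFC with GABA, rat cortex with glutamate and rat cortex with GABA, each with its own untreated group. The labels do not say that libraries of a group came from separate animals or cultures, so p-values measure the spread between libraries, which may be technical.

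BAF complexes use the energy of ATP to move or evict nucleosomes and so open or close regulatory DNA. They are built on a common core that includes BAF155, and a set of exchangeable positions gives each complex its identity: ARID1A or ARID1B defines canonical BAF, and ARID2 with PBRM1 defines PBAF. At other positions progenitor and neuronal forms replace each other in development, as when the actin-like ACTL6A of dividing progenitors gives way to ACTL6B in postmitotic neurons. DPF1 and DPF3 are PHD-finger subunits that take the place of DPF2 or PHF10, and BCL11A and BCL11B are zinc-finger transcription factors that also associate with BAF.

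The sequences before the RefSeq start of 3 members are shown because they carry the clearest changes below or, for Actl6a, the position's other form: Actl6b fell with the knockout, its paralog Actl6a passed no test there, and Bcl11a fell in hippocampus. They are from RefSeq's promoter table on GRCm38.p6, in which 9 of the 10 members had an entry; each begins 250 bases before the RefSeq start and ends before the first exon annotated there by GENCODE M21. GENCODE starts Actl6a at 32706298 and Bcl11a at 24078056, so these 2 stretches lie inside the genes as it annotates them, while that of Actl6b ends at the base before its annotated start. All lie on the + strand: Actl6b at chr5:137553296-137553516, Actl6a at chr3:32708296-32708506 and Bcl11a at chr11:24080445-24080669. Capitals mark matches on either strand to CCAAT (reverse ATTGG) and to the GC box GGGCGG (reverse CCGCCC).
Actl6b: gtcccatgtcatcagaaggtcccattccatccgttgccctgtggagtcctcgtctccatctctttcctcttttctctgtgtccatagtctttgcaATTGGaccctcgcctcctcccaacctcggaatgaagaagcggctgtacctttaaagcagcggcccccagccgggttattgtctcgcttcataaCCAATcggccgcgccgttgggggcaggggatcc
Actl6a: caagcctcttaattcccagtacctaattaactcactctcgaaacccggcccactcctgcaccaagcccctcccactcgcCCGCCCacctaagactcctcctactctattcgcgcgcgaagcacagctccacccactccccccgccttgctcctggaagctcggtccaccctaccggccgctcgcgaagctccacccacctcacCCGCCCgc
Bcl11a: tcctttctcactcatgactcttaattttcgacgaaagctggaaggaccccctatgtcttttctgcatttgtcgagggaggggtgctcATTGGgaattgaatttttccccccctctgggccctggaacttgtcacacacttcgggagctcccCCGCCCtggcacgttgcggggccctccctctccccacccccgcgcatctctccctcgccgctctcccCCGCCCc
Over the full 250 bases, Actl6b had 3 CCAAT matches, at 155, 62 and 20 bases before the start, and no GC box. Actl6a had 3 GC boxes and no CCAAT, and Bcl11a had 2 GC boxes and 1 CCAAT. Among 32851 promoters of the same length, 33.8% held CCAAT at least once and 2.79% at least 3 times, and 32.7% held GGGCGG at least once and 8.47% at least 3 times. These matches are a description of the letters and are not binding sites.

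Smarcc1, the deleted gene, was read in every acute library first. It stood at 1631, 1569 and 1510 in knockout hippocampus, against 4514, 4419 and 4454 in control hippocampus, and at 2378, 2368 and 2649 in knockout mPFC, against 3814, 3911 and 3915 in control mPFC. Every knockout library was below every control library, as the genotype labels have it. The log2 difference was -1.51 in hippocampus and -0.66 in mPFC, and the labels do not say which part of the gene the floxed alleles remove. Libraries held 14891734 to 22128687 reads in genes, taking each library's smallest step as 1 read. OPC markers were high in all acute groups, with Pdgfra between 35184 and 45229 and Olig1 between 26145 and 44021, while Mog, a marker of myelinating oligodendrocytes, was between 6.3 and 17.6. The myelin gene Mbp was 5113 to 5197 in knockout hippocampus against 2920 to 3028 in control hippocampus, and 5195 to 5808 in knockout mPFC against 1977 to 2075 in control mPFC. Marker lists moved with the knockout beside the results below. Of 12 OPC markers 0 rose and 7 fell in hippocampus, with a summed level of 222932 to 226221 in knockout and 251286 to 257324 in control libraries, and 2 rose and 10 fell in mPFC, with 214198 to 224097 in knockout and 261440 to 262315 in control libraries. Of 8 astrocyte markers 2 rose and 4 fell in hippocampus, with 28206 to 28531 in knockout and 26634 to 27625 in control libraries, and 6 rose and 2 fell in mPFC, with 33924 to 35367 in knockout and 27523 to 27739 in control libraries. Of 6 oligodendrocyte markers tested 3 rose and 2 fell in hippocampus, and 4 rose and 1 fell in mPFC. Their part in the members' results was not tested.

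Regional differences in the acute libraries did not agree between genotypes, which touches every result given by region. Dlx1 and Dlx2, transcription factors of the ventral forebrain, differed between hippocampus and mPFC by -2.30 and -2.19 (log2) in knockout libraries, by -2.63 and -2.26 in untreated mouse cultures, and by 2.61 and 3.06 in control libraries. Nr2f2, a nuclear receptor used in forebrain patterning, ran the other way, with 1.51 in knockout libraries, 3.60 in cultures and -1.30 in control libraries. Of 21 forebrain regional genes, 17 had opposite signs in control and knockout libraries, and 16 had the same sign in knockout libraries and cultures. Only 18 of the 21 passed the filter on low values in the acute fit. Of the 92 genes tested whose regional difference was at least 1 (log2) in both genotypes, 75 had opposite signs. Region labels that depart in either genotype and a knockout effect that differs by region cannot be told apart here. Members' results by region are therefore given as labelled and also with the control region labels exchanged. The knockout labels were kept in that exchange, so the region named for an exchanged result rests on them. The mean of both regions does not depend on the choice of labels. Marker counts by region depended on that choice too. With exchanged control labels 2 of 12 OPC markers rose and 9 fell in hippocampus, and 0 rose and 9 fell in mPFC. Of 8 astrocyte markers 5 rose and 3 fell in hippocampus, and 6 rose and 2 fell in mPFC. Of 6 oligodendrocyte markers 4 rose and 1 fell in hippocampus, and 3 rose and 1 fell in mPFC. Knockout mPFC replicate 3 and control hippocampus replicate 3 also stood apart from their groups, with an SD of log2 differences from the other 2 libraries of 0.222 and 0.176, against 0.0884 to 0.148 in the other acute libraries.

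**Figure D1:**
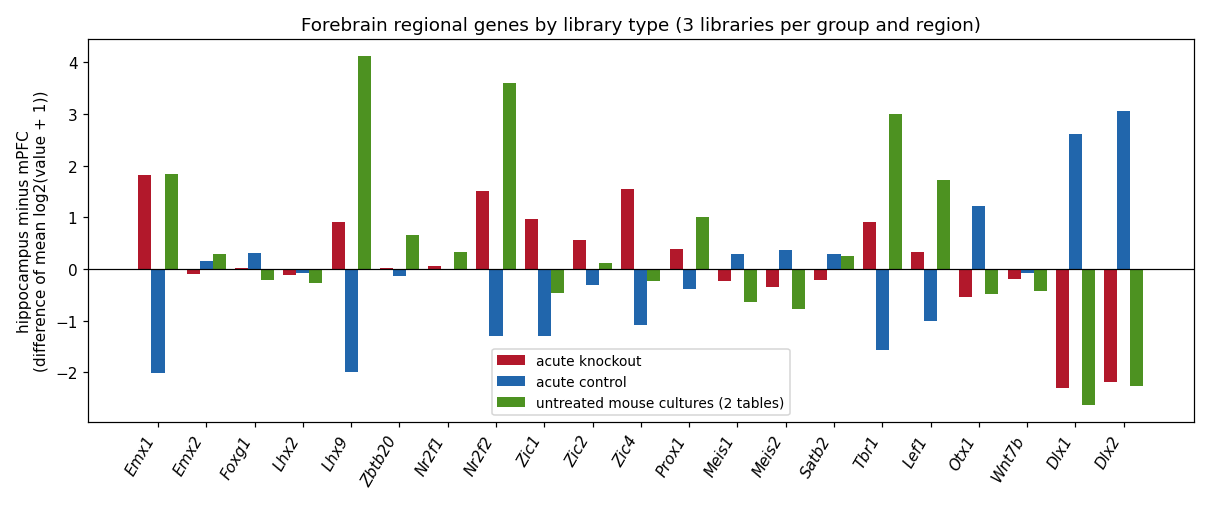
Difference between hippocampus and mPFC in mean log2(value + 1) for 21 forebrain regional genes, in acute knockout libraries, acute control libraries and untreated mouse cultures (3 libraries per group and region; the cultures' regions come from separately normalized tables). For 17 of the 21 genes the control bar points the opposite way from the knockout bar, with the largest reversals in Dlx2, Dlx1 and Emx1. Emx1, Lhx9 and Lef1 were near the floor, with acute group means of at most 6.39, 5.38 and 1.68.

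In the acute cells the members fell into a high and a low tier by level per length, in normalized reads per kb of exon. Actl6a was highest in all 4 acute groups, with 501 ± 13.9 in knockout hippocampus and 499 ± 8.82 in control hippocampus (SD, n = 3 each). Arid1a followed with 332 ± 3.59 in knockout hippocampus and 353 ± 11.3 in control hippocampus, then Pbrm1, Dpf1, Arid2 and Arid1b, the last at 125 ± 2.73 and 129 ± 5.59. Pbrm1 and Dpf1 did not differ beyond their spread in control hippocampus, at 264 ± 37.9 and 237 ± 15.6. Dpf3, Actl6b, Bcl11a and Bcl11b formed the low tier, between 10.9 and 21.3 in control groups. In control hippocampus Dpf3 averaged 21.1 ± 0.936, Actl6b 19.2 ± 3.55 and Bcl11a 17.3 ± 1.74, so that neighbours in this order did not differ beyond their spread, while Bcl11b was lower at 12.1 ± 1.96. In knockout hippocampus Actl6b was the lowest of the 10, at 7.02 ± 1.31. GENCODE M21 places 47.8% of Pbrm1's exon bases, 41.1% of Bcl11a's and 27.4% of Dpf1's opposite exons of a gene on the other strand (the protein-coding Smim4, and the antisense genes 4930538E20Rik and Gm44632), and no source used here gives the strand used in counting, so these values may hold reads of the partner. For Actl6a that share was 11.6%, with Mrpl47, and for Actl6b, Arid1a, Arid1b, Dpf3 and Bcl11b no such overlap was annotated. No stretch of 50 bases was shared between Actl6a and Actl6b, between Arid1a and Arid1b, between Dpf1 and Dpf3 or between Bcl11a and Bcl11b.

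**Figure D2:**
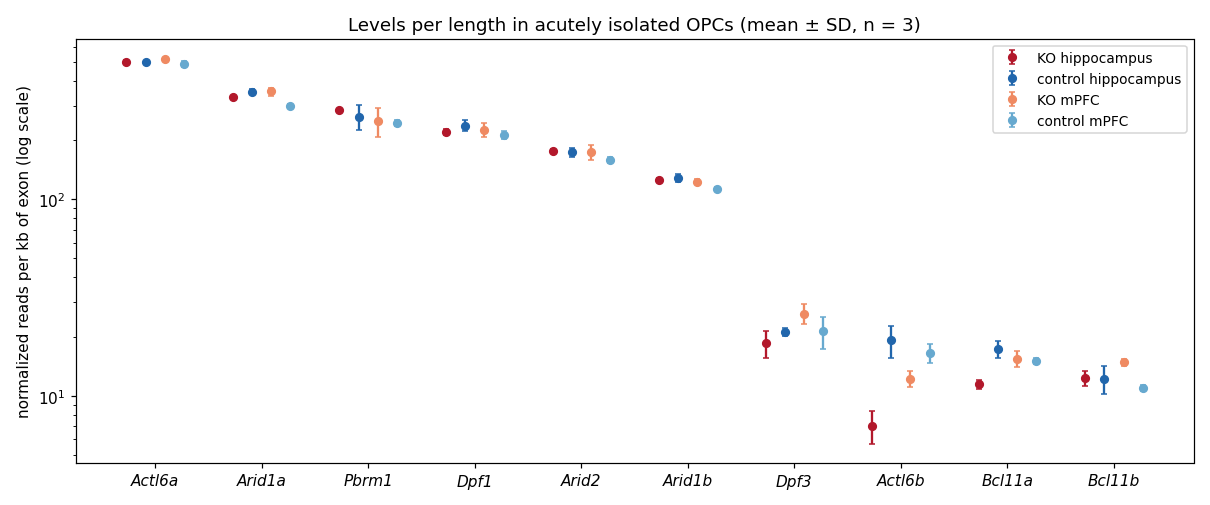
Normalized reads per kb of exon (log axis) for the 10 members in the 4 acute groups, as mean ± SD of 3 libraries, ordered by level in control hippocampus. The tier from Actl6a to Arid1b sits above 100, and the tier from Dpf3 to Bcl11b sits below 30, with Actl6b in knockout hippocampus lowest at 7.02.

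Actl6b, the neuronal actin-like subunit, was the member that changed most with the knockout. It stood at 29.9, 24.4 and 35.6 in knockout hippocampus, against 85.9, 94.7 and 65.2 in control hippocampus. In mPFC it stood at 57.0, 51.4 and 47.6 in knockout libraries, against 73.5, 76.8 and 61.5 in control libraries. All 6 knockout libraries were below all 6 control libraries, a separation that 22.6% of the 13985 genes tested also showed in one direction or the other. Taking each library's smallest value as 1 read, these are 23 to 58 reads in knockout libraries and 61 to 96 reads in control libraries. In hippocampus the log2 fold change was -1.42 ± 0.18 (SE; limma adjusted p = 1.68e-05), or 0.373 times the control level, and with exchanged control labels it was -1.22 (adjusted p = 5.65e-05). In mPFC it was -0.43 ± 0.18 and did not pass as labelled (limma adjusted p = 0.0556), and it passed with exchanged labels at -0.63 (adjusted p = 0.0103). It also passed as labelled without knockout hippocampus 5 or 6, control hippocampus 3 or control mPFC 3, at -0.53 to -0.43 (adjusted p = 0.0381 to 0.0484). The mean over both regions was -0.93 ± 0.12 (limma adjusted p = 1.86e-05).

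Neuronal transcripts were present in these libraries, and Actl6b is a neuronal gene in the intact brain. In bulk samples fewer cells of a type and less RNA per cell cannot be told apart. Of 14 neuronal markers tested in hippocampus, 3 rose and 5 fell, and their summed level was 19942 to 20405 in knockout libraries and 19423 to 23858 in control libraries. Among the defining markers there, Rbfox3 averaged 30.4 ± 8.72 in knockout and 44.6 ± 14.1 in control libraries, Snap25 292 ± 11.8 and 274 ± 24.2, and Stmn2 was 47.4 to 57.0 in knockout and 35.5 to 56.2 in control libraries; none of these 3 passed the test. Those that fell there as labelled included Gad1 (-1.72, limma adjusted p = 4.69e-09), Gad2 (-1.80, adjusted p = 0.000248), Syt1 (-0.65, adjusted p = 4.48e-05) and Tubb3 (-0.45, adjusted p = 0.0116). The 3 that rose were Slc17a7 (1.00, limma adjusted p = 0.0211), Nefl (0.93, adjusted p = 3.67e-05) and Elavl4 (0.60, adjusted p = 0.00158). All of these were named once their values were known. In mPFC 5 of the 14 rose and 5 fell, and their summed level was 16332 to 19993 in knockout libraries and 20001 to 21510 in control libraries. There Gad1 (1.62), Gad2 (1.85), Nefl (0.91) and Npy (0.76) were among those that rose. Stmn2 fell there to 24.2 ± 3.23 in knockout libraries against 176 ± 8.46 in control libraries. The others that fell there were Slc17a7, by more than Stmn2 on the log2 scale, Dcx (-0.73), Elavl4 (-0.56) and Syt1 (-0.31). Gad1 averaged 104 ± 8.31 in knockout and 345 ± 38.3 in control hippocampus, and 296 ± 2.74 in knockout and 95.5 ± 4.81 in control mPFC. Its direction thus turned between regions as labelled, as did those of Gad2, Slc17a7, Elavl4 and Nefm (-0.24 in hippocampus). Syt1 fell and Nefl rose in both regions. For the mean over both regions, 2 of the 14 neuronal markers rose and 6 fell. Exchanged control labels set Gad1 in knockout hippocampus, at 104, against 95.5 in control mPFC, so that its mean did not fall there. With that exchange 1 of the 14 neuronal markers rose and 6 fell in hippocampus, and 2 rose and 5 fell in mPFC. The part of neuronal RNA in the Actl6b result was not tested.

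Actl6a, which holds the same position in progenitor complexes, averaged 1948 ± 54.2 in knockout hippocampus and 1938 ± 34.3 in control hippocampus. It averaged 2022 ± 18.2 in knockout mPFC and 1901 ± 70.6 in control mPFC, where the groups did not overlap. The log2 fold changes were 0.01 ± 0.04 in hippocampus and 0.09 ± 0.04 in mPFC, neither past the limma threshold (adjusted p = 0.915 and 0.106). Per kb of exon, Actl6b amounted to 1.40 ± 0.222 for every 100 of Actl6a in knockout hippocampus and 3.84 ± 0.649 in control hippocampus. The same quantity was 2.34 ± 0.235 in knockout mPFC and 3.38 ± 0.275 in control mPFC. The highest knockout library, at 2.59, was below the lowest control library, at 3.08.

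**Figure D3:**
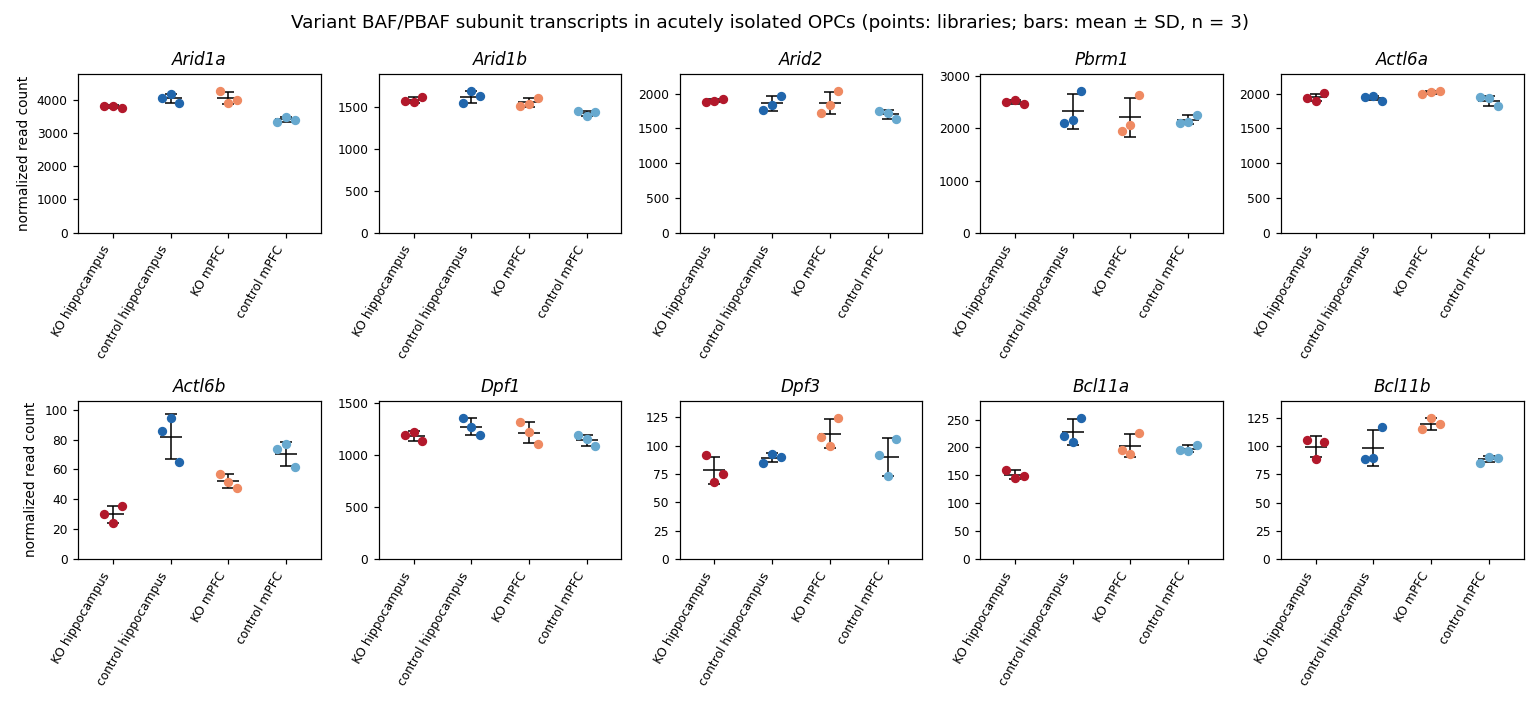
Normalized read counts of the 10 members in each acute library (points) with mean ± SD (bars, n = 3), knockout to the left of control within each region, on linear axes that start at 0. In the Actl6b panel all 6 knockout points, between 24.4 and 57.0, lie below all 6 control points, between 61.5 and 94.7; in the other 9 panels the 6 knockout and 6 control points overlap.

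Bcl11a, a zinc-finger factor that occurs in BAF, fell in hippocampus. Its values were 160, 145 and 148 in knockout hippocampus, against 221, 209 and 253 in control hippocampus, with no overlap. In mPFC they were 196, 189 and 226 in knockout libraries, against 195, 194 and 205 in control libraries, and the groups overlapped. The log2 fold change was -0.59 ± 0.09 in hippocampus (limma adjusted p = 0.000197) and -0.39 with exchanged control labels (adjusted p = 0.00364). In mPFC it was 0.03 ± 0.09 as labelled and -0.16 exchanged, and neither passed. Microglial RNA moved beside it: of 11 microglial markers in hippocampus 1 rose, 6 fell and 4 did not pass, and their summed level was 438 to 470 in knockout hippocampus and 927 to 1025 in control hippocampus. In mPFC that sum was 734 to 772 in knockout libraries and 644 to 679 in control libraries, as labelled. Of the 11 markers 3 rose and 0 fell in mPFC as labelled, and 2 rose and 4 fell with exchanged control labels. In hippocampus 1 rose and 6 fell under both labellings. None of the defining markers Cx3cr1, P2ry12 and Csf1r was at 0 in a group. As labelled, P2ry12 rose in both regions and was the 1 marker that rose in hippocampus. The 6 that fell there were Tyrobp (-1.97), Trem2 (-1.72), Ctss (-1.58), C1qc (-1.27), C1qa (-1.16) and C1qb (-1.13). For the mean over both regions, 2 of the 11 markers rose and 6 fell. The part of microglial RNA in the Bcl11a result was not tested.

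Bcl11b, its paralog, rose in mPFC. It stood at 115, 125 and 120 in knockout mPFC, against 85.6, 90.9 and 89.8 in control mPFC, without overlap. In hippocampus it stood at 106, 89.1 and 104 in knockout libraries, against 88.9, 89.8 and 117 in control libraries, which overlapped. The difference in mPFC was 0.43 ± 0.12 on the log2 scale (limma adjusted p = 0.00869) and missed the threshold with exchanged control labels, at 0.29 (adjusted p = 0.0678). Over both regions the rise was 0.23 ± 0.09 (limma adjusted p = 0.0356), and leaving out 1 acute library ended that call in 8 of 12 cases, at 0.19 to 0.24 (adjusted p = 0.0501 to 0.0868). Those libraries were knockout hippocampus 4 and 6, knockout mPFC 2, control hippocampus 1 and 2, and control mPFC 1, 2 and 3.

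The ARID subunits that define canonical BAF were abundant, and their results by region depended on the control labels. Arid1a stood at 3830, 3835 and 3761 in knockout hippocampus, against 4059, 4183 and 3923 in control hippocampus. It stood at 4276, 3905 and 4015 in knockout mPFC, against 3355, 3505 and 3397 in control mPFC. Knockout libraries were thus lower than control in hippocampus and higher in mPFC, in both cases without overlap, and control mPFC was the lowest of the 4 groups. The rise in mPFC was 0.25 ± 0.04 on the log2 scale (limma adjusted p = 0.000307), while the hippocampal -0.09 ± 0.04 did not pass (adjusted p = 0.113) except without both libraries that stood apart, where it was -0.11 (adjusted p = 0.012). With exchanged control labels mPFC came to 0.00 (adjusted p = 0.962) and hippocampus to a rise of 0.16 (adjusted p = 0.00912). The mean of both regions was 0.08 ± 0.03 (limma adjusted p = 0.0419), a call lost in 8 of 12 fits that left out 1 acute library, at 0.06 to 0.08 (adjusted p = 0.0597 to 0.11). Those libraries were knockout hippocampus 4, 5 and 6, knockout mPFC 1, control hippocampus 1 and 3, and control mPFC 1 and 3. Arid1b averaged 1551 ± 49.7 in knockout mPFC and 1420 ± 32.0 in control mPFC, a rise of 0.13 ± 0.05 (limma adjusted p = 0.0397), and 1581 ± 34.3 in knockout hippocampus and 1620 ± 70.4 in control hippocampus. The Arid1b call in mPFC was lost at 0.10 to 0.14 (adjusted p = 0.0512 to 0.133) without knockout hippocampus 4, 5 or 6, knockout mPFC 2 or 3, or control mPFC 1, 2 or 3. Its exchanged values were -0.06 (adjusted p = 0.326) in mPFC and 0.15 (adjusted p = 0.0149) in hippocampus.

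The PBAF pair passed no test as labelled. Arid2, the ARID subunit of PBAF, averaged 1901 ± 25.4 in knockout hippocampus and 1861 ± 103 in control hippocampus, and 1866 ± 162 in knockout mPFC and 1706 ± 63.4 in control mPFC. With exchanged labels its hippocampal value of 0.16 passed (limma adjusted p = 0.0454), and without knockout mPFC replicate 1 its mPFC value passed at 0.19 (adjusted p = 0.0259) and its mean over both regions at 0.11 (adjusted p = 0.0392). Pbrm1, which carries the bromodomains of PBAF, stood at 2509, 2552 and 2472 in knockout hippocampus, against 2110, 2170 and 2718 in control hippocampus. It stood at 1950, 2058 and 2640 in knockout mPFC, against 2113, 2127 and 2268 in control mPFC. The high value in each of those spread groups came from the library that stood apart genome-wide. Without both libraries, a setting chosen once the values were known, Pbrm1 rose by 0.23 in hippocampus (limma adjusted p = 4.03e-05) and fell by 0.11 in mPFC (adjusted p = 0.017).

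The PHD-finger subunits did not pass in any acute comparison as labelled. Dpf1 averaged 1185 ± 44.8 in knockout hippocampus and 1276 ± 83.7 in control hippocampus, and 1219 ± 104 in knockout mPFC and 1145 ± 54.9 in control mPFC. Dpf3, at far lower counts, averaged 78.1 ± 12.1 in knockout hippocampus and 89.2 ± 3.96 in control hippocampus, and 111 ± 12.8 in knockout mPFC and 90.1 ± 16.6 in control mPFC. Without control mPFC replicate 3, Dpf3 passed in mPFC at 0.43 (limma adjusted p = 0.0432). Without the 2 libraries that stood apart, Dpf1 fell by 0.15 in hippocampus (limma adjusted p = 0.016) and rose by 0.15 in mPFC (adjusted p = 0.015).

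As labelled, 0 members rose and 2 fell in hippocampus, where 42.6% of 13985 genes were called (21.7% up, 21% down), and 3 rose and 0 fell in mPFC, where 47.4% were called (24.1% up, 23.2% down). Over both regions 2 rose and 2 fell, where 54.4% of genes were called (26.9% up, 27.5% down). With exchanged control labels 3 rose and 2 fell in hippocampus, where 48.1% of genes were called (24.5% up, 23.6% down), and 0 rose and 1 fell in mPFC, where 38.8% were called (20% up, 18.8% down). The members' groups did not overlap for 3 members in hippocampus and 5 in mPFC, where 54.7% and 54.2% of all genes tested showed no overlap. As labelled, the members called, 2 of 10 and 3 of 10, were a smaller share than the genes called. The median size of a member's log2 fold change was 0.0976 in hippocampus and 0.127 in mPFC, against 0.199 and 0.221 over all genes tested. Actl6b and Dpf3 exceeded that median in both regions as labelled, and Dpf3 passed in neither.

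The knockout effect differed between hippocampus and mPFC, as labelled, for 3 members, all downward, where 24.4% of genes were called (11.8% up, 12.6% down). The difference was -0.99 ± 0.25 for Actl6b (limma adjusted p = 0.00998), -0.62 ± 0.13 for Bcl11a (adjusted p = 0.0042) and -0.34 ± 0.06 for Arid1a (adjusted p = 0.00149). Without knockout mPFC replicate 3, Dpf1 passed too, at -0.26 (adjusted p = 0.0237). Without both libraries that stood apart, Dpf1 passed at -0.30 (adjusted p = 0.00157) and Pbrm1 passed upward at 0.34 (adjusted p = 3.12e-05), against 0.10 with all libraries. With exchanged control labels none of these 3 passed: Actl6b came to -0.59 (adjusted p = 0.126), Bcl11a to -0.22 (adjusted p = 0.28) and Arid1a to 0.15 (adjusted p = 0.113). Arid1b passed in their place at 0.22 (adjusted p = 0.0456), where 13.8% of genes were called (6.28% up, 7.52% down).

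**Figure D4:**
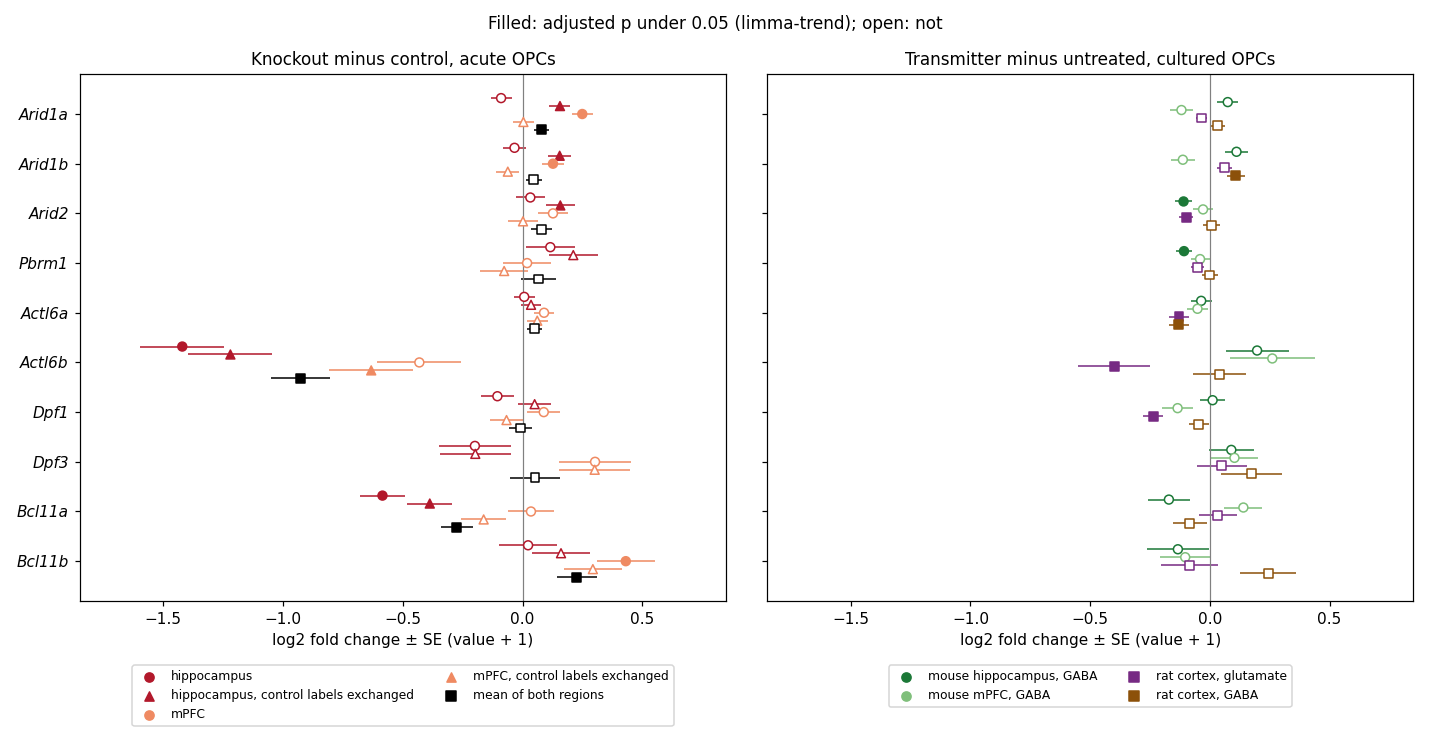
Log2 fold change ± SE of each member, on log2(value + 1), for knockout minus control in acute OPCs (left, with triangles for exchanged control region labels) and for transmitter minus untreated in cultures (right); filled symbols passed the limma test at an adjusted p under 0.05. Actl6b lies furthest from 0 in the left panel under both labellings, and Arid1a and Arid1b move between regions when the labels are exchanged; in the right panel most values lie within 0.25 of 0, apart from Actl6b under glutamate at -0.40 and under GABA in mouse mPFC at 0.26.

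The other subunits of the complex gave a context for these sizes. Of 20 further BAF and PBAF subunits, 0 rose, 13 fell and 7 did not pass in knockout hippocampus, with a median log2 fold change of -0.20, and 4 rose, 7 fell and 9 did not pass in knockout mPFC, with a median of -0.04. The counts include Smarcc1 itself. With exchanged control labels 3 rose and 7 fell in hippocampus and 0 rose and 8 fell in mPFC. Besides Smarcc1, those with the smallest p in hippocampus were Bcl7a (-0.29), Ss18l1 (-0.31), a paralog of the SS18 subunit, and Smarcd3 (-0.38), one of the exchangeable BAF60 subunits. In mPFC they were Bicra (0.38), a subunit of the non-canonical complex, the ATPase Smarca4 (0.29) and Bcl7a (-0.22). Among 4 regulators known to act on the neuronal subunit switch, 1 rose and 0 fell in hippocampus, and 2 rose and 0 fell in mPFC, as labelled. With exchanged control labels 1 rose and 0 fell in hippocampus, and 1 rose and 1 fell in mPFC. The values of single regulators that follow are as labelled. Rest, the repressor of neuronal genes, averaged 703 ± 26.5 in knockout hippocampus and 723 ± 57.7 in control hippocampus and passed in neither region. Its corepressor Rcor1 rose in both, by 0.14 in hippocampus and 0.35 in mPFC (limma adjusted p = 0.0399 and 7e-05). Of the splicing regulators, Ptbp1 rose in mPFC by 0.15 (adjusted p = 0.00376) and had -0.07 in hippocampus (adjusted p = 0.153), and Ptbp2 had -0.08 in mPFC (adjusted p = 0.446) and 0.21 in hippocampus (adjusted p = 0.0544).

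Across the 12 acute libraries the genes most like Actl6b in log2 level were Sec14l2 (Pearson r = 0.97), Crmp1 (0.97) and S100a16 (0.96). Those most like Bcl11a were Itga6 (0.97), Slc7a11 (0.95) and Mpeg1 (0.94), and those most like Bcl11b were Gpd2 (0.90), Cyth3 (0.90) and Cmya5 (0.88). The points are libraries of 4 groups, so group differences enter each r, and the 3 genes were taken from all genes tested.

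In mouse cultures the top of the order was not that of acute cells. Per kb of exon, Arid1a averaged 429 ± 7.94 in GABA-treated and 408 ± 37.3 in untreated hippocampal cultures, and Pbrm1 393 ± 10.7 and 424 ± 7.95. Actl6a ranked below both in all 4 mouse culture groups, at 338 ± 19.1 and 346 ± 1.30 in these. Arid1a and Pbrm1 did not differ beyond their spread in untreated hippocampal or GABA-treated mPFC cultures, and in the other 2 groups Arid1a was the higher. Dpf3 averaged 46.0 ± 5.58 in GABA-treated and 43.0 ± 1.65 in untreated hippocampal cultures. Acute and culture tables were normalized separately, so only the order within each is compared. Actl6b per 100 of Actl6a was 5.89 ± 0.272 in GABA-treated and 5.02 ± 0.609 in untreated hippocampal cultures, and 5.11 ± 1.45 in GABA-treated and 4.03 ± 0.617 in untreated mPFC cultures.

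GABA, the main inhibitory transmitter, was followed in mouse cultures of both regions. In hippocampal cultures 2 of 10 members fell, both of PBAF, where 24.7% of 14933 genes were called (11.9% up, 12.8% down) and 39.3% had groups that did not overlap. Arid2 stood at 2441, 2445 and 2458 with GABA, against 2577, 2606 and 2747 untreated, a log2 change of -0.11 ± 0.04 (limma adjusted p = 0.0268). Pbrm1 stood at 3442, 3409 and 3588 with GABA, against 3705, 3714 and 3831 untreated, also -0.11 ± 0.03 (limma adjusted p = 0.0203). Neither pair of groups overlapped. Leaving out 1 library ended the Arid2 call in 5 of 6 cases (adjusted p = 0.0543 to 0.0921), all but untreated replicate 1, and the Pbrm1 call in 3 of 6 (adjusted p = 0.0508 to 0.116), those without GABA replicate 1 or 2 or untreated replicate 2. Without untreated replicate 1, Arid1a and Arid1b rose by 0.14 and 0.17 (adjusted p = 0.00236 and 0.00488), and without GABA replicate 3 Bcl11a fell by 0.27 (adjusted p = 0.0395). Of 9 microglial markers tested beside these, 0 rose and 3 fell, with a summed level of 863 to 948 with GABA and 1219 to 1253 untreated, and their part was not tested. In mPFC cultures 0 members passed, where limma called 6.55% of 14894 genes (3.18% up, 3.36% down) and 25.8% had groups that did not overlap. Of the members 2 had an unadjusted p under 0.05, as did 3054 of the 14894 genes, a like share. These members were Arid1a, at 4809 ± 399 with GABA and 5210 ± 13.3 untreated, and Arid1b, at 1531 ± 92.1 with GABA and 1654 ± 41.7 untreated. In mPFC cultures the log2 differences of Arid2 and Pbrm1 were -0.03 ± 0.04 and -0.04 ± 0.04. The difference between the regional GABA effects passed for 0 members, where 4.97% of 14574 genes were called (2.8% up, 2.18% down); 3 members had an unadjusted p under 0.05, as did 3028 of those genes. That difference passed for Arid1b without mPFC GABA replicate 2, at 0.27 (adjusted p = 0.0264), and for Arid1a and Arid1b without untreated hippocampal replicate 1, at 0.26 and 0.28 (adjusted p = 0.0216 and 0.0213).

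Glutamate, the main excitatory transmitter, lowered 4 members in rat cortical cultures and raised 0, where 28.3% of 12465 genes were called (14.1% up, 14.2% down). Dpf1 stood at 933, 953 and 964 with glutamate, against 1084, 1126 and 1151 untreated, with no overlap. Its log2 change was -0.24 ± 0.04 (limma adjusted p = 1.65e-06), and it passed in all 6 fits that left out 1 library, with adjusted p up to 0.000121. Arid2 stood at 2613, 2671 and 2658 with glutamate, against 2837, 2816 and 2855 untreated. Its change was -0.10 ± 0.03 (limma adjusted p = 0.00492), and it too passed in all 6 of those fits. For each of the 2 genes the glutamate libraries all lay below the untreated ones.

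Actl6a stood at 1020, 1064 and 1037 with glutamate, against 1175, 1101 and 1139 untreated, a change of -0.13 ± 0.04 (limma adjusted p = 0.009). Actl6b stood at 62.5, 54.1 and 51.3 with glutamate, against 66.7, 70.7 and 85.4 untreated, a change of -0.40 ± 0.15 (limma adjusted p = 0.0368). Both actin-like subunits had groups that did not overlap, as did 38.8% of genes tested. The Actl6b call was lost at -0.43 to -0.30 (adjusted p = 0.0568 to 0.216) without glutamate replicate 2 or 3 or untreated replicate 2 or 3, and the Actl6a call at -0.11 (adjusted p = 0.0758) without untreated replicate 1. Oligodendrocyte markers moved beside these: 5 of 7 tested fell and 0 rose, and their summed level was 151204 to 153063 with glutamate and 188952 to 191086 untreated. The OPC marker sum was 181919 to 183720 with glutamate and 199215 to 200695 untreated, and 2 of 12 OPC markers rose and 8 fell. Of 8 astrocyte markers 7 rose and 1 fell, with 46689 to 46923 with glutamate and 39687 to 39833 untreated, and of 13 neuronal markers 3 rose and 2 fell, with 17776 to 18073 with glutamate and 19997 to 20686 untreated. The part of cell makeup in the members' changes was not tested.

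The other 6 members did not pass with glutamate. Bcl11a averaged 246 ± 16.4 with glutamate and 241 ± 19.9 untreated, Bcl11b 101 ± 9.35 and 107 ± 2.79, and Dpf3 144 ± 17.9 and 139 ± 13.7. The log2 differences of the high-count members Arid1a, Arid1b and Pbrm1 were -0.04 ± 0.02, 0.06 ± 0.03 and -0.05 ± 0.03. Without glutamate replicate 1, Arid1b passed at 0.09 (limma adjusted p = 0.0336). Of 18 other subunits tested, 0 rose and 4 fell, led by Smarcd1 (-0.17), a BAF60 subunit, with Bicral (-0.20), the core subunit Smarcc2 (-0.07) and Smarcd3 (-0.13). For Smarcc1 the log2 difference was -0.03 and did not pass.

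GABA in rat cortical cultures raised 1 member and lowered 1, where 23.7% of 12481 genes were called (11.9% up, 11.8% down) and 37.2% had groups that did not overlap. Arid1b stood at 1647, 1717 and 1658 with GABA, against 1581, 1606 and 1476 untreated, a rise of 0.11 ± 0.04 (limma adjusted p = 0.033). Actl6a stood at 1043, 1005 and 977 with GABA, against 1132, 1045 and 1133 untreated, a change of -0.13 ± 0.04 (limma adjusted p = 0.025). The nearest libraries of the Actl6a groups were 1043 with GABA and 1045 untreated. Leaving out 1 library ended the Arid1b call in 5 of 6 cases (adjusted p = 0.0514 to 0.204), all but untreated replicate 2, and the Actl6a call in 4 of 6 (adjusted p = 0.0738 to 0.138), those without GABA replicate 2 or 3 or untreated replicate 1 or 3. Microglial markers rose with GABA, 9 of 10 tested, with a summed level of 1123 to 1217 against 482 to 550 untreated, and of 6 oligodendrocyte markers 5 rose and 0 fell, with 205757 to 207465 against 168098 to 174361 untreated. Of 12 OPC markers 3 rose and 7 fell, with 184574 to 185974 with GABA and 188361 to 190826 untreated. Their part in these changes was not tested.

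The glutamate and GABA effects in rat were set against each other in 1 fit over both tables, each with its own untreated group. With all libraries Dpf1 was the only member that passed, with a difference of -0.19 ± 0.06 (limma adjusted p = 0.00965), where 21.3% of 12183 genes were called. With GABA it averaged 1100 ± 39.8, against 1135 ± 6.08 untreated, a log2 difference of -0.05 ± 0.04 that did not pass. For Actl6a the difference between the effects was 0.00 ± 0.06, and for Actl6b it was -0.44 ± 0.18 (limma adjusted p = 0.078). Without glutamate replicate 1 that of Actl6b passed at -0.52 (adjusted p = 0.0425), and without untreated replicate 2 of the GABA set that of Arid2 passed at -0.13 (adjusted p = 0.0191). The 2 rat sets were separate tables with separate untreated libraries, so set and transmitter cannot be told apart.

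**Figure D5:**
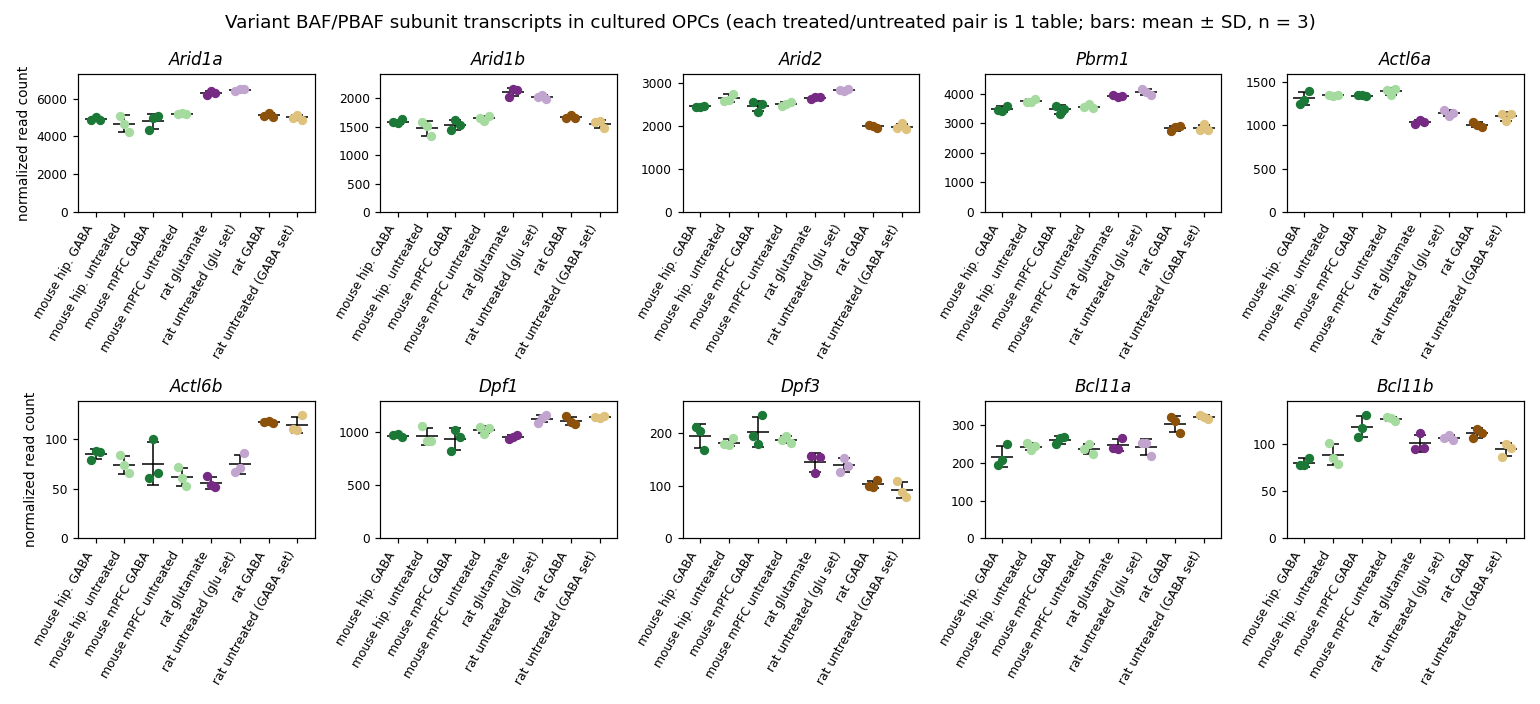
Normalized read counts of the 10 members in each culture library (points) with mean ± SD (bars, n = 3), each treated group to the left of its untreated group, on linear axes that start at 0; every pair is a table of its own, so levels compare only within a pair. In the Dpf1 panel the 3 rat glutamate libraries, at 933 to 964, lie below the 3 untreated ones, at 1084 to 1151.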

How the data were processed

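Per the labels' protocols, polyA RNA was sequenced as single 50-base reads on the DNBSEQ platform. The submitters' processing notes name HISAT, Bowtie2 and DESeq2 and the build GRCm38.p6, also for the rat libraries; roles and versions are not given in the sources used here. The deposited values are the authors' normalized read counts (a signal per gene, not raw counts): each is a whole multiple of a step of 0.905 to 1.12 in its library (tolerance 1e-06). Entries without a symbol (1.52% to 1.66% of the signal in the rat tables) or without values (3600 in the acute table) were left out. Libraries were grouped by their labels.

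Genes at 10 or more in at least 3 libraries of a fit were tested on log2(value + 1) with limma 3.58.1 (trend, R 4.3.3), adjusted by Benjamini and Hochberg over all genes tested, at a threshold of 0.05. The 4 acute groups shared 1 fit; differences between culture tables used 1 fit on shared genes. A fold change is on the log2(value + 1) scale, which understates changes of low genes. An exact permutation test of 3 against 3 libraries cannot go below p = 0.1. Only the mPFC knockout test was checked on simulated data. Those data gave all libraries the same spread, so the check does not cover libraries that stand apart. Members and gene lists were chosen with earlier results of these data known. The text names all 10 members, Smarcc1 and, per comparison, the other subunits with the 4 smallest p among those called. It also names the first 3 genes of marker lists. For the 3 members with the smallest adjusted p over both regions it names the 3 genes with the highest r. Regional genes, regulators and further neuronal and microglial markers were chosen after their values were seen. Exon lengths and overlaps are from GENCODE M21, promoters from RefSeq. Alternatives were other pseudocounts, filters and scalings, fewer groups, a replicate block, exchanged control region labels and left-out libraries.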

Additional observations from a re-analysis of the deposited data

Results flagged for a closer look

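A difference between effects measured under the same contrast put 4 results here, each from a limma fit that tests the difference itself. The knockout effect in hippocampus minus that in mPFC was -0.99 for Actl6b, -0.62 for Bcl11a and -0.34 for Arid1a on the log2 scale. These rest on the control region labels. Regional differences in control libraries ran against those in knockout libraries for 17 of 21 regional genes. With the control labels exchanged none of the 3 passed (limma adjusted p = 0.126 for Actl6b, 0.28 for Bcl11a and 0.113 for Arid1a). The effect of glutamate minus that of GABA in rat cultures was -0.19 for Dpf1, and it passed in all 12 fits that left out 1 library, with adjusted p up to 0.0421. The 2 transmitters were measured in separate tables.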

How the results depend on the processing

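Falls of Actl6b and Bcl11a over both regions and in the libraries labelled knockout hippocampus kept direction and call under every alternative run. So did that of Dpf1 with glutamate. No alternative exchanged the knockout region labels, so the region of the first 2 falls rests on those labels. Exchanging the control region labels gave 1 member called in mPFC, 5 in hippocampus and 1 for the difference, for which 1929 genes were called (3415 as labelled). It turned Arid1b to -0.062 in mPFC and 0.15 in hippocampus, Arid1a to 0.16 in hippocampus, and the regional difference to 0.15 for Arid1a and 0.22 for Arid1b. Leaving out both libraries farthest from their groups, chosen after seeing the data, gave 5 members in mPFC, 5 in hippocampus and 5 for the difference, with 6990 genes for the difference, and turned Pbrm1 in mPFC to -0.11. Without a filter, 641 genes passed for GABA in mPFC cultures (975 with it), members called were 1 for GABA in hippocampal cultures and 0 for GABA in rat, and calls were lost for Actl6b with glutamate (adjusted p = 0.0818) and Bcl11b over both regions (0.0633). Quantile normalization called 2 members over both regions, 0 for GABA in hippocampal cultures and 2 for glutamate minus GABA. The Arid1b call in mPFC was lost under it (adjusted p = 0.0568) and in a fit of only those 2 groups (0.077), and Actl6b there gained one under both (0.0476 and 0.0408), as with a pseudocount of 10 (0.0462). No scaling moved the median of all genes by over 0.1.

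Leaving out each library in turn, members called ranged from 2 to 4 over both regions, 0 to 4 for GABA in hippocampal cultures, 0 to 2 for its regional difference, 0 to 2 for GABA in rat and 1 to 2 for glutamate minus GABA. Genes called ranged from 2421 to 5283 for the regional knockout difference, 2357 to 4300 for GABA in hippocampal cultures, 418 to 1820 in mPFC cultures and 228 to 1286 for their difference. Over single members, 897 values kept their side of the threshold in those fits, 46 lost and 17 gained a call; under other settings these were 704, 16 and 14, with 6 turned round. Values called in neither fit count as kept even where the sign turned.

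Same-numbered libraries did not deviate together (r = 0.118, -0.00669 and 0.0503 between knockout and control mPFC), so the numbers were not taken to pair them. With the replicate block, Arid1b in mPFC lost its call at 0.13 (adjusted p = 0.0984) and Actl6b gained one at -0.43 (adjusted p = 0.0401), with no other member's call changed; knockout and control hippocampus share no numbers in their titles. A planned edgeR test on recovered reads was not run. At 23 to 96 reads in acute libraries, counting error limits Actl6b.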
